A study of Mus musculus with 21 samples.

Results

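The genotype comparison in the stroke hemisphere set 4 libraries of Gpr124 conditional knockout mice (cKO_ST) against 4 libraries of control mice (Control_ST), which are 8 of the 21 libraries of the series. The members were chosen by their labels alone, and genes entered when their mean over these 8 libraries was at least 1 RPKM, the authors' read density, scaled for transcript length and for sequencing depth. Of 24206 gene names 9592 passed. RNA came from the endothelium of the brain, the lining of its blood vessels, in adult C57BL/6 mice of 12 to 20 weeks. Cells were sorted as live, positive for the endothelial protein CD31 and negative for the leukocyte protein CD45 and the pericyte protein PDGFRb. All 8 libraries came from the hemisphere in which the middle cerebral artery had been occluded for 1 h and reperfused for 1 d. Control mice had the genotype Gpr124 flox/+; ROSA-CreER+, and knockout mice Gpr124 flox/-; ROSA-CreER+. Both groups therefore carry the same inducible Cre, driven from the ROSA locus and so not restricted to endothelium. The controls also have 1 floxed allele, and the knockouts carry a null allele (-) beside theirs. Where Cre was induced in controls too, the comparison is of partial against intended full loss of Gpr124, not of intact against lost. The sources used here do not give the time or dose of Cre induction. Nor do the labels say whether each library is a separate animal, and the p-values then cover only the variation among these libraries, which may be technical.

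Gpr124, also named Adgra2, is an adhesion-class receptor of endothelial cells that works with the membrane-anchored protein Reck. Together they let Wnt7 ligands signal through Frizzled receptors and Lrp5 or Lrp6, after which beta-catenin (Ctnnb1) and TCF/LEF factors switch on target genes. In brain vessels this pathway is known for driving vessel growth in the embryo and for maintaining the blood-brain barrier, whose transporters and tight junctions separate blood from brain tissue. The comparison addresses which endothelial genes depend on Gpr124 when the barrier is challenged by stroke.

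The 8 libraries held an estimated 6.55 to 19.7 M reads, with 6.55 to 19.3 M in controls and 11.6 to 19.7 M in knockouts. Control 3 was the shallowest of the 8, at 6.55 M, and had the fewest genes above 0, 13140. Knockout 4 and control 4 stood apart most from their groups, with root-mean-square distances from the other 3 libraries of 0.833 and 0.747 on the log2(RPKM + 1) scale against 0.474 to 0.621 for the other libraries. Knockouts 3 and 4 were labelled male and the other 6 female. The RNA of knockout 3 went against its label, with Xist, the RNA of the inactive X chromosome, at 89.7 RPKM and 4 Y-linked genes at 0.423 RPKM in sum. Knockout 4 had 0.776 and 249 RPKM. The 24 endothelial markers were all past the filter and summed to 7151 to 9257 RPKM in controls and 6377 to 8584 in knockouts, so the ranges overlapped. Of the 10 neuron markers 2 passed the filter (Snap25 and Stmn2), Rbfox3 and Slc17a7 were at 0, and their sums did not overlap, at 9.94 to 22.8 RPKM in controls and 5.15 to 9.02 in knockouts. Sums of 12 mural markers were 12.6 to 49.3 and 15.9 to 108 RPKM, with Anpep at 0, and sums of 14 microglia and macrophage markers 2.29 to 18.3 and 5.36 to 12.3, with Tmem119 at 0. Sums of 11 oligodendrocyte markers were 64.4 to 1155 and 56.8 to 772 RPKM, high in libraries 1 and 4 of each group, and all 9 that passed the filter had negative differences (median -0.42). Red-cell and platelet markers summed to 4120 to 11470 and 1649 to 21010 RPKM, with the highest sum in knockout 3. Sums of 11 neutrophil, lymphocyte and monocyte markers were 1.6 to 106 RPKM in controls, highest in control 4, and 5.0 to 23.7 in knockouts. Of these Cd3e, Ccr2, Nkg7, Ltf and Camp were at 0. Sums of 8 choroid plexus and ependymal markers were 15.4 to 597 and 4.17 to 997 RPKM, with Ccdc153 at 0. Sums of 9 astrocyte markers were 719 to 1166 and 995 to 1077 RPKM, nearly all of it Gja1. The part of these other cells in the results was not tested. In bulk samples fewer cells of a type and less RNA per cell cannot be told apart.

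Gpr124 itself was measured first, as a check of the genotype labels. Its values were 8.12, 5.94, 2.92 and 2.98 RPKM in controls 1 to 4 and 0.50, 1.72, 1.72 and 1.52 RPKM in knockouts 1 to 4. The groups did not overlap, and each knockout library still listed the gene above 0. The difference was -1.28 ± 0.39 (SE, 95% interval -2.11 to -0.46) on the log2(RPKM + 1) scale. An exact two-sided permutation test of 4 against 4 libraries gave p = 0.0286, the smallest that 70 relabellings allow. Among all genes the adjusted p was 0.706 (limma, Benjamini-Hochberg). In the non-stroke hemisphere the groups overlapped, at 3.0, 7.6, 4.7 and 2.6 RPKM in controls and 2.0, 0.99, 3.2 and 4.9 in knockouts. The difference there was -0.57 ± 0.39, so the check of the labels holds for the stroke hemisphere only. Gpr124 lies on chromosome 8 at 27085583 to 27123436 on the plus strand (GRCm38, GENCODE), and the labels do not say which exons were floxed. The reads come from the 3' end of the transcript, so they may lie outside the deleted part.

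The other parts of the receptor complex had no common direction. Of 22 listed components 16 passed the filter, with a median difference of -0.02 against -0.03 over all genes, and 9 were negative and 7 positive. Reck was at 19.9, 43.2, 24.0 and 39.2 RPKM in controls and 31.9, 28.3, 20.3 and 37.1 in knockouts, a difference of -0.06 ± 0.28. The interval of Reck ran from -0.66 to 0.54, and its sign turned when single libraries were left out. Fzd4, the main Frizzled receptor of brain endothelium, differed by 0.31 ± 0.23, and 3 of 4 knockout libraries lay above every control while knockout 4 was the lowest of all 8. Ctnnb1 was the most evenly measured of the named components, at 1927 to 2149 RPKM in controls and 1874 to 2052 in knockouts, with an interval of -0.30 to 0.18. Pygo2, a nuclear partner of beta-catenin, differed by 0.34 ± 0.24.

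Targets of the pathway lay mostly on the lower side in knockouts, and none passed the adjusted test. Of 21 listed targets 12 passed the filter, 10 of them were negative, and their median was -0.39. That median was -0.22 without control 4, -0.21 without knockout 4 and -0.15 without a filter on low values. In the other hemisphere the median of the same 12 genes was -0.28 against 0.11 over all genes. The median of their stroke-hemisphere difference minus the other was -0.06, so the lower side was not particular to the stroke hemisphere. Axin2, the feedback inhibitor that serves as the usual readout of the pathway, averaged under 1 RPKM and was therefore outside the fit. It was at 0.786, 1.24, 0.717 and 1.43 RPKM in controls and 0.409, 0.183, 0.332 and 0.0716 in knockouts, so the groups did not overlap. It was given no test. In the other hemisphere Axin2 averaged 4.59 RPKM in controls and 2.66 in knockouts. These low values rest on few reads. Notum, a secreted Wnt inhibitor likewise below the filter, was at 1.53, 1.53, 0.226 and 2.82 RPKM in controls and 0.215, 0.378, 0.482 and 0.502 in knockouts, and the groups overlapped through control 3.

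Foxq1, a forkhead factor that is also a Wnt target, gave the lowest p of the measured targets. Its values were 130, 127, 108 and 157 RPKM in controls and 77.6, 64.8, 87.6 and 86.6 in knockouts, without overlap, a difference of -0.71 ± 0.17 (limma adjusted p = 0.553). Sox17, a factor of endothelial specification, differed by -0.54 ± 0.21, and its groups overlapped. Nkd1, an inhibitor of the pathway, differed by -0.55 ± 0.29 and Apcdd1, another, by -0.46 ± 0.37. Lef1, the factor that binds target genes and is itself a target, was at 693 to 832 RPKM in controls and 543 to 887 in knockouts, a difference of -0.06 with an interval of -0.39 to 0.27. Ccnd1 (0.39) and Myc (0.34), which drive the cell cycle, were the 2 positive members and were named after their values were seen.

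Across all genes, limma called none at an adjusted p of 0.05, 0 higher (0.00%) and 0 lower (0.00%), and the lowest adjusted p was 0.280. At an unadjusted p of 0.05 there were 483 genes (5.04%), 174 higher (1.81%) and 309 lower (3.22%) in knockouts. With no difference between the groups, a share of about 0.05 would pass that limit. With median-of-ratios scaling, which divides each library by a common factor, the split was 223 higher and 264 lower, again with 0 called. Groups did not overlap for 322 genes (3.36%), 148 higher (1.54%) and 174 lower (1.81%). Of the 70 relabellings of 4 against 4 libraries, a share of 0.0286 leaves a gene's groups without overlap. Neither count is therefore read as an excess. Single libraries decided the count of calls. Among them control 3 was the shallowest library (above), and the part of depth was not tested. Without control 3, limma called 8 genes lower (Itm2a, Slco1c1, Tspan13, Sparcl1, Itih5, Slc22a8, Gas6 and Ablim1) and 1 higher (Lsmem1), with a lowest adjusted p of 0.00207. Without knockout 3, 3 were called lower (Itih5, Slco1c1 and Ccdc141, adjusted p = 0.0429), and without libraries 4 of both groups 1 was called higher (Csf3, adjusted p = 0.0244). These genes are named because they were called there, after their values were seen. The lowest adjusted p ranged from 0.00207 to 0.991 over all alternatives tried.

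Among the named genes without overlap on the lower side, Itih5, Itm2a and Sparcl1 had the lowest p-values. Itih5, which codes for a heavy chain of an inhibitor that binds hyaluronan in the matrix, was at 19.5, 22.1, 9.28 and 17.5 RPKM in controls and 5.19, 1.92, 9.13 and 4.96 in knockouts. Control 3 and knockout 3 nearly met, and the difference was -1.59 ± 0.30 (adjusted p = 0.280). Itm2a, a membrane protein abundant in brain endothelium, was at 356, 413, 141 and 386 RPKM in controls and 108, 139, 111 and 99.6 in knockouts. Controls 1, 2 and 4 thus lay far above all knockouts and control 3 was next to them, with a difference of -1.39 ± 0.29 (adjusted p = 0.385). Sparcl1, a secreted matrix protein, was at 488, 546, 258 and 398 RPKM against 215, 199, 214 and 184, a difference of -1.003 ± 0.21 (adjusted p = 0.385). Its knockout values were close together, and control 3 was again the lowest control.

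Gpm6a, a membrane glycoprotein best known from neurons, was at 18.1, 30.4, 29.2 and 23.0 RPKM in controls and 12.9, 8.26, 11.7 and 2.77 in knockouts, a difference of -1.53 ± 0.33. The summed neuron markers were also lower in every knockout library than in every control (above), and Snap25, a synaptic protein, was at 3.08 to 9.56 RPKM against 0.272 to 3.0. The part of neuronal RNA in the value of Gpm6a was not tested. Zic2, a zinc-finger factor, differed by -0.62 ± 0.15, Vps35, a subunit of the endosomal retromer, by -0.74 ± 0.18, and Cetn2, a centrosome protein, by -0.96 ± 0.23. The rule also named Zfp760 (-0.81 ± 0.20), a zinc-finger gene, and Sarnp (-0.74 ± 0.18), an RNA-export protein at 32.0 to 38.3 RPKM in controls and 19.6 to 21.1 in knockouts. Rn45s, the precursor of ribosomal RNA, was at 176 to 217 RPKM in controls and 28.4 to 113 in knockouts. Poly(A) selection is meant to remove this RNA, and the part of that step in the difference was not tested. In the other hemisphere the 12 genes named for their separation on the lower side also had negative differences except for Sarnp, at 0.04. Snap25, which is not among them, was at 0.22 there and Gpm6a at -0.90.

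On the higher side the 12 genes named for their separation had adjusted p-values of 0.706 or more. Entpd1, the ectoenzyme CD39 that breaks down extracellular ATP, was at 36.8, 49.8, 43.5 and 46.8 RPKM in controls and 99.0, 60.6, 55.9 and 68.6 in knockouts, a difference of 0.64 ± 0.19 (limma adjusted p = 0.706). Cebpb, a transcription factor of the acute response, was at 6.50, 7.08, 14.5 and 16.1 RPKM against 26.6, 26.7, 31.4 and 16.1, and the groups nearly met at control 4 and knockout 4. Tmem100, an endothelial membrane protein downstream of BMP signalling, was at 2.68 to 8.62 RPKM against 10.0 to 24.2, a difference of 1.32 ± 0.50. Nrarp, a feedback regulator of Notch, was at 4.21 to 9.60 RPKM against 11.2 to 16.5, a difference of 0.84 ± 0.31. The largest difference of the set, 1.80 ± 0.61 for Faim, an inhibitor of apoptosis, rested on knockout 4, at 238 RPKM beside 17.5 to 21.1 in the other knockouts and 5.90 to 12.9 in controls. The remaining named genes were Lenep (1.43), Ptpre (0.92), Mrpl42 (0.74), Socs7 (0.61), Casc3 (0.61) and the histone genes Hist2h2aa1 and Hist2h2aa2. The last pair are near-identical copies whose reads the counting could split, so their value of 1.11 is uncertain. In the other hemisphere the 12 genes named for their separation on the higher side also had positive differences except for Faim, at -0.40. Cebpb was at 1.36 there, Lenep at 1.05 and Entpd1 at 0.43.

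**Figure D1:**
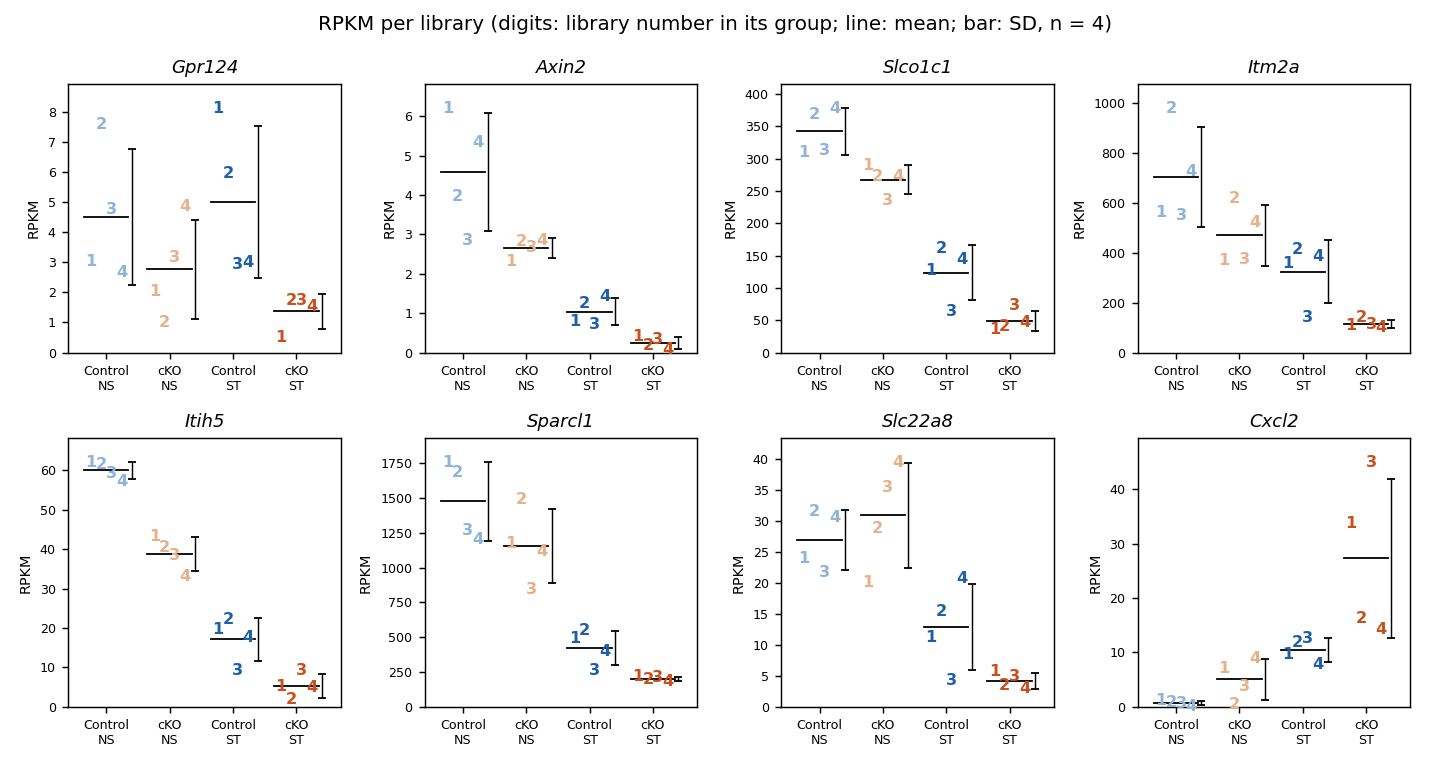
RPKM of 8 genes in each library of the stroke (ST) and non-stroke (NS) hemisphere, on a linear vertical axis starting at 0. Digits are the library numbers within a group, lines the group means and bars the SD (n = 4). Gpr124 and Axin2 are separated between control and knockout in the stroke hemisphere, and control 3 lies near the knockout libraries for Slco1c1, Itih5 and Slc22a8.

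The sequences before the starts of 3 of the lower genes are shown because Wnt target genes are read by TCF/LEF factors. The 250 bases before each RefSeq start (GRCm38.p6) were searched for the letters CTTTGAA and CTTTGAT on both strands, and no other motif was searched. RefSeq entries were matched for 7 of the 12 lower genes named by the rule, and 2 of them, Gpm6a and Slc39a10, held a match at 1 of their 2 starts. Over all genes 8.63% held a match at any start. Of the 9 matched genes on the higher side 0 held one, and the start of Axin2 held none, which says only that these letters are not in this window. Each sequence is given 5' to 3' on the gene's strand, with a match in capitals. The Slco1c1 window is chr6:141524104-141524353 on the plus strand, that of Itm2a chrX:107403361-107403610 on the minus strand, and that of Slc39a10 chr1:46925777-46926026 on the minus strand, at a RefSeq start upstream of the gene's start in GENCODE. In Slc39a10 the match begins at position -177, counted back from the start. A match is a description of letters and not a shown binding site.
Slco1c1: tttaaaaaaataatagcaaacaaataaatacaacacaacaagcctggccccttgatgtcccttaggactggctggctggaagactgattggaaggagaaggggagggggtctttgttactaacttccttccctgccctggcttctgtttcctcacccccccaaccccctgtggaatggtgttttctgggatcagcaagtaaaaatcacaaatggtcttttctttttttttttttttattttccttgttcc
Itm2a: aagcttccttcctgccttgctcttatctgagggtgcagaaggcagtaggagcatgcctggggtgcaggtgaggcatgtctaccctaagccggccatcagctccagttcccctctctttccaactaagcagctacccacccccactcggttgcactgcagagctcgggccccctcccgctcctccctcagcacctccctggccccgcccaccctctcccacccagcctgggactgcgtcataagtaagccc
Slc39a10: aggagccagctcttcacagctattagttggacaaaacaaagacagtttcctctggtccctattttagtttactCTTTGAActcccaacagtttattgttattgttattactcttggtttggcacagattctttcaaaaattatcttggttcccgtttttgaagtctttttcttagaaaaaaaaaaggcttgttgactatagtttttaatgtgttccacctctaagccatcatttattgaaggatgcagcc

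Transporters of the blood-brain barrier formed the list with the most members on the lower side. All 32 listed genes passed the filter, 29 were negative and 3 positive, and their median was -0.56 against -0.03 over all genes. Unadjusted p was under 0.05 for 15 lower and 0 higher members, where 3.22% of all genes were lower, and 0 passed the adjusted test. The groups did not overlap for 3, all lower, where 1.81% of all genes were lower without overlap. In the other hemisphere the median of the same 32 genes was -0.03 against 0.11 over all genes, with 6 lower and 2 higher at an unadjusted p under 0.05, of which 2 lower passed the adjusted test. The list was chosen with results of these data known, so the counts describe it and do not test it.

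**Figure D2:**
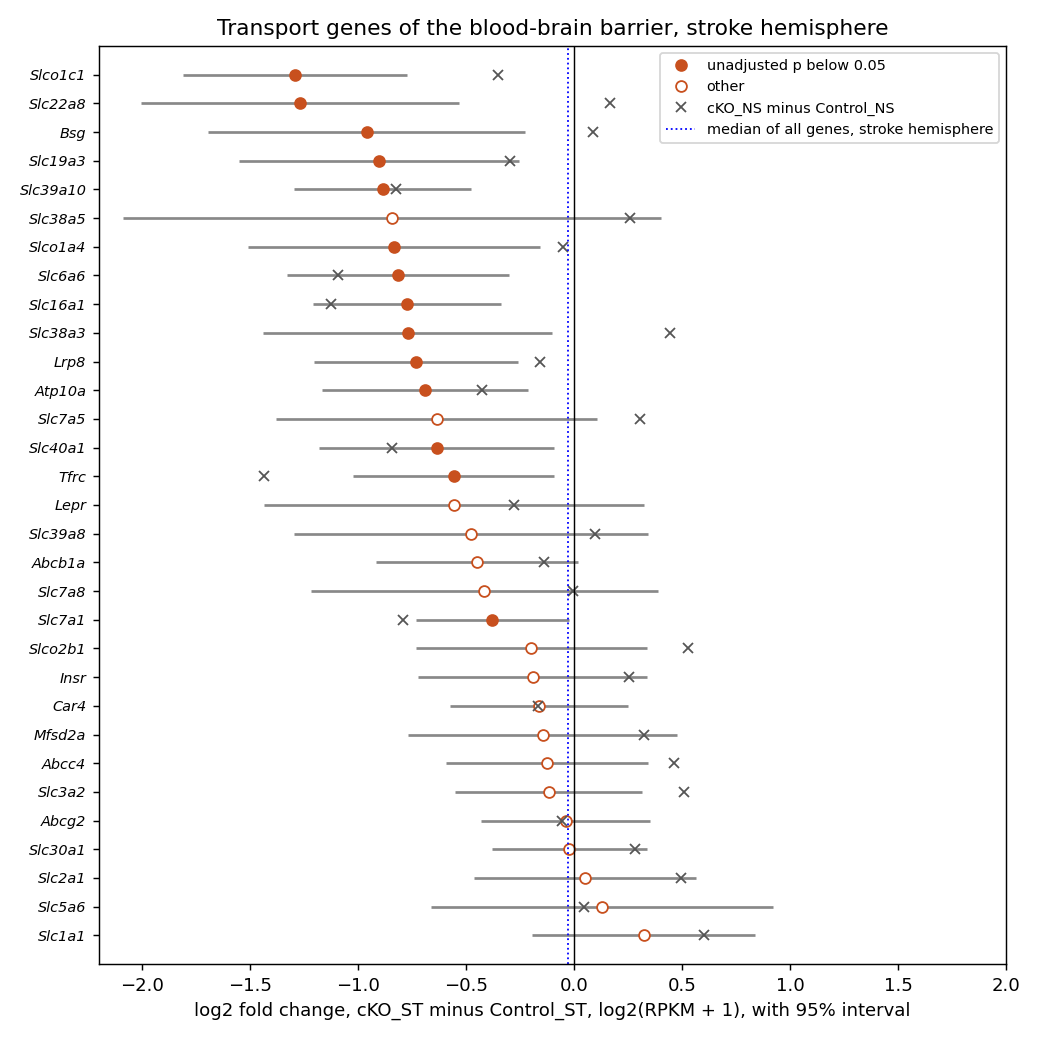
Difference between knockout and control stroke libraries for 31 of the 32 transport genes, on the log2(RPKM + 1) scale, with 95% intervals from limma. Filled points have an unadjusted p under 0.05, crosses give the same difference in the non-stroke hemisphere, and the dotted line marks the median of all genes, -0.03. Most points lie to the left of 0, from Slco1c1 at -1.29 to Slc1a1 at 0.32.

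Slco1c1, the carrier of thyroxine and organic anions, had the lowest p of all genes tested. It was at 126, 161, 63.4 and 144 RPKM in controls and 36.4, 40.2, 72.2 and 46.5 in knockouts, with means of 124 ± 42.6 and 48.8 ± 16.1 (SD, n = 4). The groups overlapped only through control 3 and knockout 3, and the difference was -1.29 ± 0.25 (adjusted p = 0.280). The gene lies on chromosome 6 at 141524368 to 141570177 on the plus strand (GRCm38).

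Carriers of organic anions, monocarboxylates, zinc and taurine lay on the same side. Slc22a8, an organic anion exporter, was at 11.2, 15.3, 4.23 and 20.7 RPKM in controls and 5.68, 3.36, 4.81 and 2.95 in knockouts, a difference of -1.27 ± 0.35. Slco1a4, a related uptake carrier, differed by -0.83 ± 0.32, with knockout 3 at 292 RPKM beside 98.2 to 120 in the other knockouts. Slc16a1, the lactate and ketone carrier, was at 633, 895, 531 and 643 RPKM against 432, 300.1, 372 and 468, without overlap, a difference of -0.77 ± 0.21 (adjusted p = 0.616). Its partner Bsg, the chaperone that carries it to the membrane, differed by -0.96 ± 0.35 with overlapping groups. Slc39a10, a zinc importer, was at 97.3, 139, 84.9 and 101 RPKM against 51.2, 47.0, 56.6 and 70.5, a difference of -0.89 ± 0.20 (adjusted p = 0.385). Slc6a6, the taurine carrier, was at 261 to 423 RPKM against 134 to 227, a difference of -0.82 ± 0.25. In Slc39a10 and Slc6a6, as in Slc16a1, every knockout lay below every control.

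Further members carry nutrients and lipids. Slc19a3, the thiamine carrier, differed by -0.91 ± 0.31, Slc38a3, a glutamine carrier, by -0.77 ± 0.32, Lrp8, a lipoprotein receptor, by -0.73 ± 0.22, and Atp10a, a phospholipid flippase, by -0.69 ± 0.23. The iron genes Slc40a1, the exporter ferroportin, and Tfrc, the transferrin receptor, differed by -0.64 ± 0.26 and -0.56 ± 0.22, and Slc7a1, the carrier of cationic amino acids, by -0.38 ± 0.17. These genes and the other carriers above were taken from the list after their values were seen, beyond the 3 that the rule names. For several transporters that define the barrier the interval of the difference included 0. Slc2a1, the glucose transporter Glut1, was at 2624, 2716, 1850 and 3135 RPKM in controls and 2294, 2342, 4118 and 2149 in knockouts, a difference of 0.05 with an interval of -0.46 to 0.56. That value rested on knockout 3, since without it the difference was -0.17, and the sign also turned without control 3. Mfsd2a, the carrier of lysophospholipids that limits vesicle traffic, differed by -0.15 (interval -0.77 to 0.48), and Abcb1a, the efflux pump P-glycoprotein, by -0.45 (interval -0.92 to 0.02). Slc1a1, a glutamate carrier, had the highest value, 0.32 ± 0.25.

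The 2 libraries numbered 3 carried much of the overlap in this list. Mean log2(RPKM + 1) over the 32 genes was 5.50, 5.71, 4.90 and 5.71 in controls 1 to 4 and 4.79, 4.83, 5.25 and 4.93 in knockouts 1 to 4. Control 3 was thus inside the range of the knockouts, and it was the lowest control for 25 of the 32 genes, where it was lowest for 3746 of all 9592. Knockout 3 was the highest knockout for 15 and knockout 4 for 10, where knockout 3 was highest for 2098 of all genes and knockout 4 for 3306. Without control 3 the median was -0.71 with 19 members at an unadjusted p under 0.05, and without control 2 it was -0.42 with 11. Over all alternatives the count lay between 10 and 19.

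**Figure D3:**
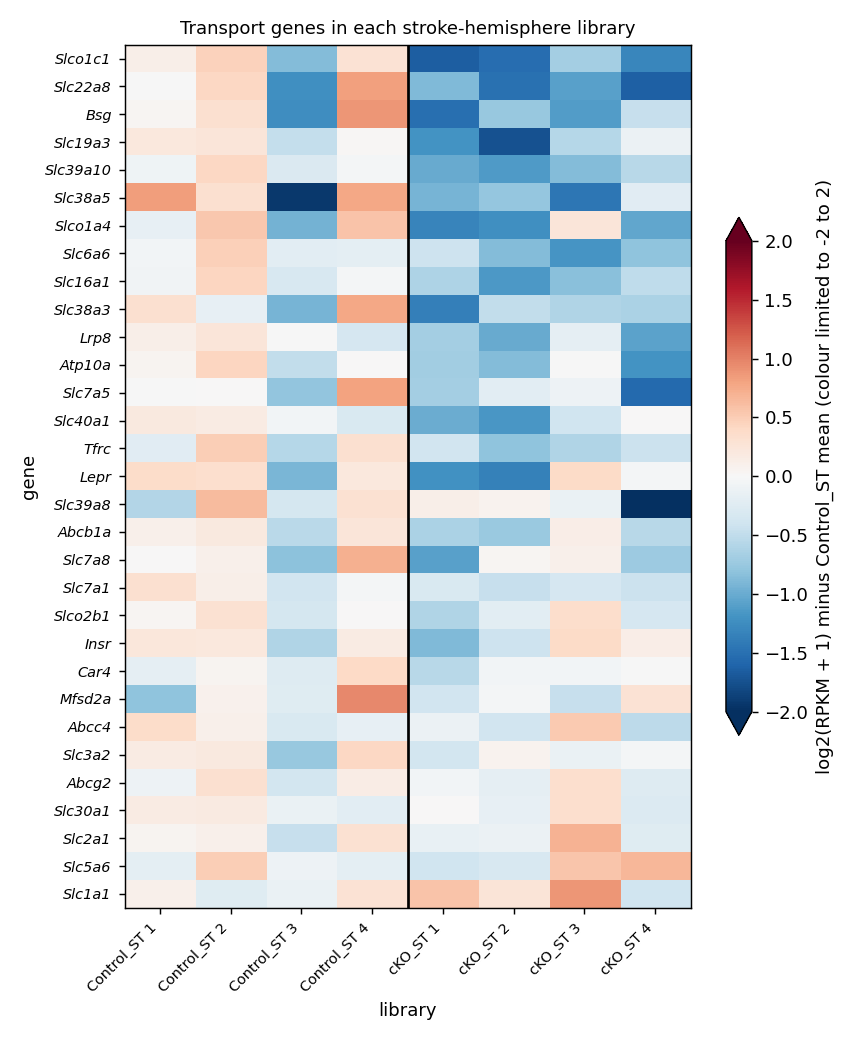
The same 31 of the 32 transport genes (rows) in each of the 8 stroke-hemisphere libraries (columns), as log2(RPKM + 1) minus the mean of the 4 control libraries, with colours limited to -2 to 2. Blue is below and red above the control mean. Control 3 is blue for most genes, and knockout 3 is less blue than the other knockouts, with means of 4.90 and 5.25 over the whole list.

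Most of these transporters also fell with stroke in control mice. In Control_ST against Control_NS, the non-stroke hemisphere of control mice, 22 of the 32 fell and 0 rose at an adjusted p of 0.05 (limma), where 4.57% of all genes fell and 8.79% rose. Slco1c1 fell by 1.54 (adjusted p = 0.000417) from a mean of 342 ± 36.4 RPKM (SD, n = 4), and Atp10a fell by 2.08 (adjusted p = 9.47e-06). The controls of the stroke hemisphere enter both comparisons, so the values are given side by side and not as support for each other.

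Tight junction genes differed from each other in direction. Of 16 listed 12 passed the filter, 7 were negative and 5 positive, with a median of -0.14. The sign of the median turned without control 4 (0.0064), without knockout 4 (0.025) and without a filter (0.0051). Ocln, occludin, was at 166, 160, 106 and 153 RPKM in controls and 118, 104, 113 and 68.0 in knockouts, and only control 3 lay inside the range of the knockouts (-0.55 ± 0.18, limma adjusted p = 0.833). Cldn5, the main claudin of the barrier, was at 84.1 to 195 RPKM against 72.0 to 127, a difference of -0.16 with an interval of -0.64 to 0.32. Its sign turned without control 4, the library with 195. Marveld2, tricellulin, differed by 0.52 ± 0.29 and F11r, the adhesion molecule JAM-A, by 0.50 ± 0.29. Of 10 measured adherens junction genes, 7 were positive and 3 negative, among them Cdh5, VE-cadherin, at 0.28 ± 0.16 and Jup, plakoglobin, at -0.58 ± 0.30. Vesicle and permeability genes had a median of -0.02 over 14. Plvap, the diaphragm protein of leaky vessels, ranged from 1.67 to 16.8 RPKM in controls and from 1.33 to 15.2 in knockouts, and its interval of -1.40 to 1.14 allows no direction.

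Matrix genes differed from each other in direction. Of 14 measured basement membrane genes, 3 had an unadjusted p under 0.05, all lower, where 3.22% of all genes were lower, and the median was 0.06. Besides Sparcl1 they were Agrn, the heparan sulfate proteoglycan agrin, at 25.5, 31.5, 18.5 and 28.6 RPKM in controls and 12.1, 14.4, 15.1 and 10.7 in knockouts without overlap (-0.93 ± 0.26, limma adjusted p = 0.706), and Fn1, fibronectin (-0.59 ± 0.23). Col4a1, the main collagen of the vessel basement membrane, was at 102 to 123 RPKM against 110 to 166, a difference of 0.28 ± 0.20. Of 10 measured proteases and inhibitors 0 had an unadjusted p under 0.05, and Timp1, an inhibitor, differed by 0.56 ± 0.35 and Adamts9 by 0.28 ± 0.24. Mmp9 was listed at 0 in 7 of the 8 libraries and Mmp3 was at 0.400 RPKM or less, both under the filter.

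Inflammation genes held a small group on the higher side. Of 29 listed 23 passed the filter, with a median of 0.06, 14 positive and 9 negative, and 5 had an unadjusted p under 0.05, all higher, where 1.81% of all genes were higher. Cxcl2, a neutrophil chemokine, was the single member without overlap, at 9.67, 11.9, 12.5 and 7.79 RPKM in controls and 33.7, 16.3, 45 and 14.2 in knockouts (1.17 ± 0.49, limma adjusted p = 0.959). Lcn2, lipocalin-2, was at 103, 201, 138 and 373 RPKM against 269, 344, 944 and 286, a difference of 1.13 ± 0.44. Csf3, the granulocyte growth factor G-CSF, was at 0.114, 1.12, 0.336 and 3.37 RPKM against 4.73, 4.23, 8.78 and 1.30. The groups of Csf3 overlapped only through libraries 4, and this is the gene that was called without them. Il6 (0.91 ± 0.39) and Ccl2 (0.97 ± 0.42, with control 3 at 0) were the other 2, named after their values were seen. In the non-stroke hemisphere 5 of the 23 were likewise higher and 0 lower at that limit, where 1009 of all 9592 genes were higher. The differences there were 1.78 for Lcn2, 1.57 for Cxcl2 and 0.06 for Csf3.

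Adhesion molecules that bind leukocytes differed from each other in direction. Of 9 measured, 4 were positive and 5 negative. Selp, P-selectin, was at 2.16 to 8.73 RPKM in controls and 4.10 to 13.3 in knockouts (0.82 ± 0.36), and Icam1 at 18.6 to 47.8 against 37.5 to 42.4 (0.49 ± 0.30). Sele, E-selectin, differed by -0.12 ± 0.40 and Vcam1 by -0.26 ± 0.50. With stroke in controls Sele rose by 3.01 (limma adjusted p = 7.33e-05). Interferon-response genes had a median of -0.22 over 23, 18 negative and 5 positive. Isg15, a ubiquitin-like protein of that response, was at 13.6, 13.4, 10.7 and 9.56 RPKM against 4.67, 9.28, 6.41 and 4.43 without overlap (-0.86 ± 0.32), and Irf1, one of its factors, differed by 0.50 ± 0.25.

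**Figure D4:**
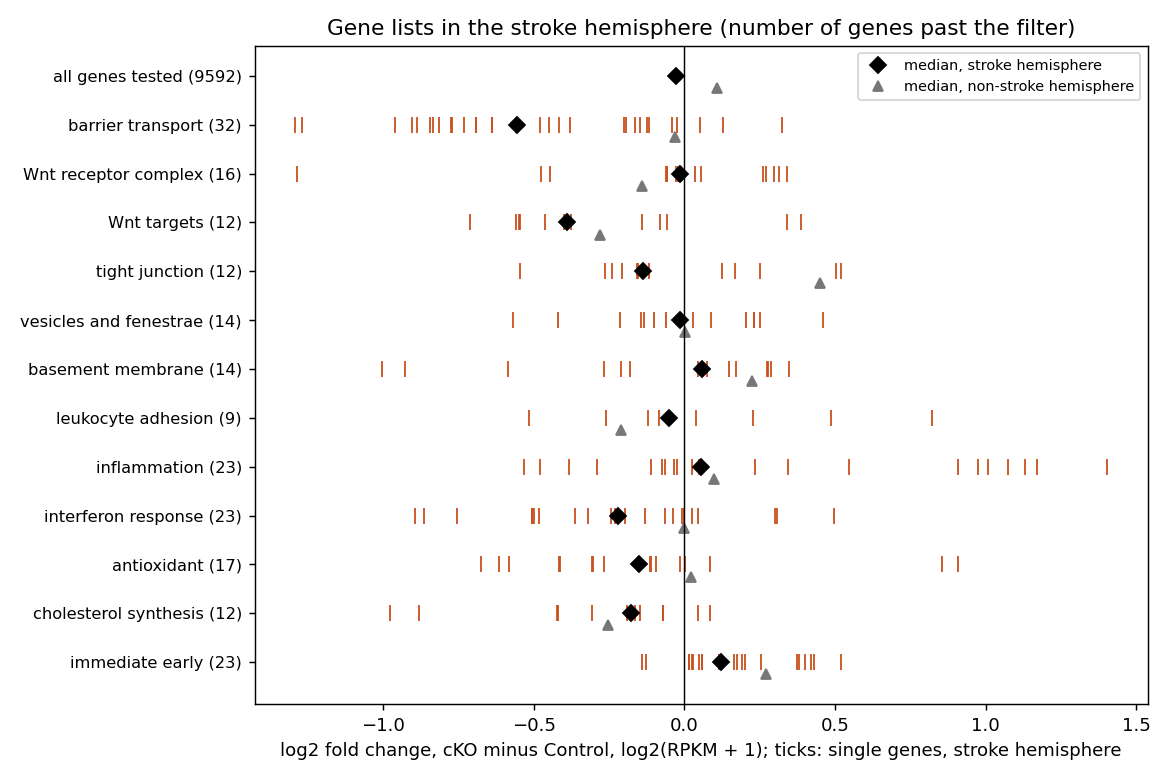
Differences between knockout and control libraries by gene list, on the log2(RPKM + 1) scale, with the number of genes past the filter in brackets. Ticks are single genes and diamonds their median in the stroke hemisphere, and triangles are the medians in the non-stroke hemisphere. The transport list (-0.56) and the Wnt targets (-0.39) have the lowest medians of the lists drawn, beside -0.03 over all genes. Marker lists of other cell types are not drawn. Of these, the 9 oligodendrocyte markers past the filter had a median of -0.42 and the 2 neuron markers -0.94. The 1 choroid plexus marker past the filter was at -1.05. The other marker lists with members past the filter had medians from -0.29 to 0.15.

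Genes of redox defence and sterol synthesis included several separated members. Gclm, the regulatory subunit of glutathione synthesis, was at 63.3, 73.0, 72.1 and 64.7 RPKM in controls and 36.9, 52.1, 41.0 and 40.5 in knockouts, a difference of -0.68 ± 0.23 (limma adjusted p = 0.833). Cat, catalase, was at 36.3 to 43.6 RPKM against 26.6 to 33.0. In both, all knockouts lay below all controls, and 3 of 17 antioxidant genes did so, while the metal-binding protein Mt1 differed by 0.86 ± 0.46. Of 12 measured sterol genes 3 did not overlap, all lower, where 1.81% of all genes did. Among them were Cyp51, a demethylase of the pathway, at 10.1 to 17.9 RPKM against 3.72 to 9.79, and Dhcr7, which makes the last step, at 0.704 to 4.29 against 0.343 to 0.675. The values of Dhcr7 are low and rest on few reads. Its mean was 2.23 RPKM in controls and 0.520 in knockouts, so it passed the filter only through the controls. The count of 3 includes it and is a description only.

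Growth and tone genes were few on either side. Of 19 measured angiogenesis genes 1 was higher and 2 lower at an unadjusted p under 0.05, where 1.81% of all genes were higher and 3.22% lower. Tek, the angiopoietin receptor Tie2, was at 97.2 to 111 RPKM in controls and 68.5 to 93.2 in knockouts without overlap (-0.35 ± 0.16), and Nrp1, a co-receptor of VEGF, differed by -0.52 ± 0.22. Adm, the peptide adrenomedullin, differed by 0.69 ± 0.32. Sphk1, which makes sphingosine 1-phosphate, was at 0.406 to 1.00 RPKM against 1.75 to 3.39 without overlap, at low values. Ednrb, an endothelin receptor, was at 15.8, 17.1, 21.2 and 11.8 RPKM against 31.5, 20.0, 43.4 and 42.0, a difference of 0.98 ± 0.27. Pdgfb, the factor that recruits pericytes, differed by -0.34 ± 0.24, and Hbegf, a growth factor, by 0.57 ± 0.30. Of 23 immediate-early genes, 21 were positive with a median of 0.12 and 0 had an unadjusted p under 0.05. Pf4, a platelet gene, was listed at 0 in all 4 controls and in knockout 4 and was at 1.59, 5.72 and 1.48 RPKM in knockouts 1 to 3, while Ppbp, another platelet gene, was at 0.0955 to 1.06 RPKM in controls and 0 to 1.14 in knockouts.

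The genotype difference was then set against that in the non-stroke hemisphere. In that hemisphere the groups of Gpr124 itself overlapped (above). There limma called 22 of the same 9592 genes higher (0.229%) and 7 lower (0.0730%), and the groups did not overlap for 639 higher (6.66%) and 192 lower genes. The median difference of all genes was 0.11 there, so the median interaction, the stroke-hemisphere difference minus the other, was -0.14. With median-of-ratios scaling both medians were 0.00. The interaction was called for 0 genes (0.00%), with a lowest adjusted p of 0.443, and at an unadjusted p under 0.05 for 116 genes higher (1.21%) and 552 lower (5.75%). It was 0 under each alternative that gave a value.

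The 6 genes with the lowest interaction p were Gstk1, Mrpl23, Cpt2, Timm8b, Actr1b and Chchd4. All 6 had negative values, from -2.99 ± 0.59 for Gstk1, a glutathione transferase of mitochondria and peroxisomes, to -1.43 for Timm8b, which serves protein import into mitochondria. In the stroke hemisphere Cpt2, the fatty acid enzyme of the inner mitochondrial membrane, was at 3.93, 4.70, 4.68 and 5.30 RPKM in controls and 1.27, 1.66, 1.77 and 0.822 in knockouts (-1.26 ± 0.38). In the other hemisphere it differed by 1.34. Gstk1 was at 7.16 to 25.9 RPKM in controls and 3.96 to 6.50 in knockouts of the stroke hemisphere, and its difference there was -1.26 ± 0.42 against 1.73 in the other. For Mrpl23, Actr1b and Chchd4 the stroke-hemisphere values overlapped (-0.37, -0.37 and -0.43), and the larger differences were those of the other hemisphere (1.64, 1.87 and 1.66).

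Of the genes that led on the lower side, the interaction was -0.94 for Slco1c1 (unadjusted p = 0.0148), -0.96 for Itih5, -0.81 for Itm2a and -0.64 for Sparcl1, with adjusted p from 0.686 to 0.717. A larger difference in the stroke hemisphere was therefore not shown for them. In the non-stroke hemisphere the difference was -1.13 for Slc16a1 (limma adjusted p = 0.0244). It was -1.44 for Tfrc (limma adjusted p = 0.0141), and these were the 2 transport genes called there. For Slc39a10 the differences in both hemispheres were close, -0.89 and -0.83, with an interaction of -0.06. Slc22a8 and Slc38a3 differed by 0.17 and 0.44 there, with interactions of -1.44 and -1.22 (adjusted p = 0.686 for both).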

How the data were processed

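The authors deposited 1 table of RPKM (read density scaled for transcript length and sequencing depth), per the labels from 3' digital-expression libraries of polyadenylated RNA. The submitters' processing notes name edgeR and mm10. The aligner, annotation, lengths and any further scaling are not stated, that is, not given in the sources used here. Of its 24260 rows, some were set aside. Rows with a name found more than once (54 rows, 23 names) were dropped, 27 names had become dates and are never named, and 8 columns that match no described sample were not used. Depth was estimated from the steps between low values, with GENCODE lengths of single-transcript genes. The 2 estimates made in this way differed by at most 0.104%. They share 1 scale, so this does not check the absolute read numbers, which rest on the GENCODE lengths.

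Comparisons used limma 3.58.1 (R 4.3.3). Values were log2(RPKM + 1), which understates changes of low genes. The fit had 4 group means over the 16 stroke-experiment libraries, with moderated two-sided tests with a mean-variance trend, and Benjamini-Hochberg adjustment over 9592 genes at 0.05. Xist and 4 Y-linked genes were left out. The fit was tested on simulated data. The comparison, the 37 gene lists and the rules were chosen with earlier results of these data known. Named genes were those past the threshold without overlap whose higher group averaged 5 RPKM or more, with free places among 12 per direction filled by the lowest unadjusted p, then up to 3 members per list with the lowest p, a set of pathway and barrier genes always named, and the 6 lowest interaction p. Predicted genes were skipped, and some genes of the rule and the lists are not reported here but stay in the counts. Replicate numbers are shared by the groups. Same-numbered control and knockout libraries of the stroke hemisphere correlated by -0.017 to 0.054 in their deviations, so numbers were not taken as pairs across genotypes. Between hemispheres of a genotype this correlation was not computed, and the main fit took all 16 libraries as independent. Oligodendrocyte marker sums were highest in libraries 1 and 4 in both hemispheres of each genotype. A link by number, within a genotype or across genotypes, therefore remains possible. Alternatives covered scaling, pseudocount, filter, libraries fitted, trend, block and each library left out, and leaving out both libraries 4 was added after seeing the data. Promoters came from RefSeq (GRCm38.p6) and coordinates from GENCODE (GRCm38). p-values cover the spread between libraries only.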

Additional observations from a re-analysis of the deposited data

Results flagged for a closer look

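In 190 groups of 4 values of the named genes, the highest or lowest library was compared with the others on the log2(RPKM + 1) scale by Dixon's criterion for 4 values at the 95% level. Chance gives about 1 in 20 such groups, and the 7 found among the 190 are not more than that share. Itm2a was at 141 RPKM in control 3 beside 356 to 413 in the other controls. Faim was at 238 RPKM in knockout 4 beside 17.5 to 21.1, and Fzd4 at 21.8 RPKM in knockout 4 beside 32.9 to 34.2. Slc2a1 was at 4118 RPKM in knockout 3 beside 2149 to 2342. Gpr124 was at 0.50 RPKM in knockout 1 beside 1.52 to 1.72, and Slc38a3 at 3.44 RPKM in knockout 1 beside 6.42 to 7.17. Tek was at 111 RPKM in control 2 beside 97.2 to 99.3. By the criterion itself, in each of these 7 groups 1 library lay apart from 3 that were close together.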

How the results depend on the processing

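The call of 0 genes held under every setting tried except 3. Leaving out 1 library gave 0 to 1 genes higher and 0 to 8 lower, and leaving out libraries 4 of both groups, an alternative chosen after seeing the data, gave 1 higher. The fit with a replicate block, in which libraries of the same number form a pair, called 0 genes (lowest adjusted p = 0.951), and 186 higher and 268 lower genes had an unadjusted p under 0.05. Its counts without overlap, 148 and 174, are unchanged by construction. The block within genotype called 0 genes for the interaction (lowest adjusted p = 0.561). Same-numbered control and knockout libraries of the stroke hemisphere correlated by at most 0.054 in their deviations. That correlation was not computed between hemispheres of a genotype.

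Counts of genes without overlap also moved, and with fewer libraries an overlap is less likely by construction. With a mean of at least 5 RPKM, which leaves fewer genes, they were 84 higher and 114 lower, and without the libraries labelled male 572 and 685. Without libraries 4 they were 550 and 544, and with 1 library left out 240 to 301 higher and 262 to 512 lower.

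The following list medians moved with the setting, and the cause was not tested. The Wnt target median was -0.15 without a filter, -0.24 at a mean of 5 RPKM, -0.14 without libraries 4 and -0.50 to -0.21 with 1 library left out. The tight junction median was 0.0051, 0.0038, -0.0072 and -0.15 to 0.025 in the same order. The cell cycle median was 0.070 without a filter and -0.026 to 0.32 with 1 library left out, and the arterial median 0.0050 at a mean of 5 RPKM. The TGF-beta and BMP median was 0.080 without the libraries labelled male, 0.094 without libraries 4 and -0.036 to 0.054 with 1 library left out. Without the libraries labelled male the cholesterol synthesis median was -0.022 and the red-cell and platelet median -1.50.

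Signs of genes with small differences turned, and the cause was not tested. With 1 library left out, Slc2a1 ranged from -0.17 to 0.15, Plvap from -0.61 to 0.35, Reck from -0.25 to 0.11, Mfsd2a from -0.42 to 0.17, Cldn5 from -0.29 to 0.11, Sele from -0.48 to 0.39, Vcam1 from -0.73 to 0.013 and Lef1 from -0.16 to 0.079. Slc2a1 was at -0.22 with quantile normalization. Without the libraries labelled male Slc2a1 was at -0.13, Reck at 0.00098 and Lef1 at 0.0012. Without libraries 4 Mfsd2a was at 0.029, Lef1 at 0.089, Apcdd1 at 0.045 and Sele at 0.23. Low RPKM values rest on few reads.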
